A study of Mus musculus with 12 samples.

Results

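The genes described here are 10 collagen genes of fibroblast matrix, chosen by name: Col1a1, Col1a2, Col3a1, Col5a1, Col5a2, Col5a3 and Col11a1, which encode chains of fibril-forming collagens, and Col6a1, Col12a1 and Col14a1, which encode collagens that associate with fibrils. The choice was made with earlier results of these data known. They are 10 of 19938 genes that could be tested, and each had 1 probe set on the array. The study profiled RNA of mouse embryonic fibroblasts, from OG2 mice (which carry a fluorescent Oct4 reporter) crossed to 129/sv, on 12 whole-transcript microarrays. One arm of 6 cultures received SKO together with retrovirus carrying microRNA cluster C, microRNA cluster B or a blank control virus, and RNA was taken at day 8 and day 4 after the first infection. The other arm of 6 cultures received cluster C, cluster B or blank virus alone, on the same days. The labels tie SKO to induction of pluripotency but leave its letters unexplained; it is read here as Sox2, Klf4 and Oct4. Neither do they list the microRNAs of either cluster. All cultures were kept in mouse embryonic stem cell medium, and feeder cells were removed before extraction. Only the arm without SKO is tagged Group2 in its titles, so an effect of SKO and a difference between such groups cannot be told apart.

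Collagen chains are made as procollagens in the endoplasmic reticulum, where prolyl and lysyl hydroxylases modify them and the chaperone Serpinh1 (HSP47) holds the triple helix. Secreted procollagens are trimmed by proteases and assemble into fibrils. Type I collagen is the main fibril of connective tissue, type III runs with it in soft tissue, and types V and XI start fibrils and limit their width. Fibroblasts are a main source of types I, III and V, and loss of fibroblast gene expression is an early step of reprogramming towards induced pluripotent stem cells.

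There was 1 array per condition and no replicate. Levels are the deposited log2 values, and a difference of 1 is a doubling. SEs were estimated with limma from the 12 arrays together, and the spread behind them is how far a virus effect varied from day to day and a day effect from virus to virus. A gene was called where its Benjamini-Hochberg adjusted p over all 19938 genes was under 0.05, and intervals are 95% intervals of that fit. Nothing says that the arrays came from separate experiments, so p-values measure only this spread. The lowest level of any of the 10 genes on an array was 5.71 (Col5a3), above the lower quartiles of the arrays, which lay between 3.48 and 3.68. Levels of different genes come from different probes and are not compared with each other. Of 9 fibroblast markers the defining gene Pdgfra was at 7.45 to 8.27 with SKO and 9.63 to 9.91 without SKO, and Thy1 at 8.48 to 8.71 with SKO and 8.25 to 8.88 without SKO, so both defining fibroblast genes were well above the lower quartile in both arms.

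Collagen genes were lower with SKO. At day 8 all 10 were lower than without SKO, by 0.76 (Col6a1) to 1.55 (Col3a1) on the log2 scale. The median difference was -1.23, against -0.07 over all genes tested. At day 4, 9 of the 10 were lower, by 0.56 to 1.52, with a median of -0.99 against -0.04 over all genes, and Col14a1 was the exception. Among all genes tested, 12.7% were called lower and 13.4% higher at day 8, and 9.4% lower and 9.52% higher at day 4. For 9 of the 10 genes, each of the 6 arrays with SKO lay below each of the 6 without, which held for 7.1% of all genes. The 10 genes were chosen with earlier results of these data known, so these counts describe the set and do not test it. In bulk RNA, fewer collagen-making cells and less collagen RNA per cell cannot be told apart.

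Col1a1 and Col1a2 encode the α1 and α2 chains of type I collagen. At day 8 Col1a1 was at 11.42 with SKO and cluster C, 11.63 with SKO and cluster B and 11.55 with SKO and blank virus, against 13.01, 12.87 and 12.92 without SKO. At day 4 it was at 11.89, 11.81 and 12.10 with SKO, against 12.90, 12.94 and 12.88 without SKO. The arms did not overlap, and the gap between the highest array with SKO and the lowest without was 0.77. The difference was -1.40 ± 0.11 at day 8 (SE; limma adjusted p = 2.05e-05) and -0.97 ± 0.11 at day 4 (adjusted p = 0.000313). Col1a2 lay between 11.27 and 12.13 with SKO (median 11.68), against 12.65 to 12.78 without SKO (median 12.72). It was lower by the same test at day 8 (-1.26 ± 0.11) and day 4 (-0.83 ± 0.11). Col1a1 minus Col1a2 ranged over 0.37 across the 12 arrays, while the genes alone ranged over 1.59 and 1.51. For the type V partner chains, Col5a1 minus Col5a2 ranged over 0.72, and the genes alone over 1.52 and 1.85.

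Col3a1 encodes the single chain of type III collagen. It was at 10.11, 10.35 and 10.50 at day 8 with SKO and cluster C, cluster B and blank virus, against 11.90, 11.82 and 11.89 without SKO. At day 4 the values were 10.13, 10.08 and 10.46 with SKO, against 11.46, 11.55 and 11.50 without SKO. The arms did not overlap, with a gap of 0.96. The difference at day 8, -1.55 ± 0.10 (limma adjusted p = 8.45e-06), was the lowest of the 10 genes, and that at day 4 was -1.28 ± 0.10. Col3a1 lies on chromosome 1 at 45311538-45349706 (GRCm38.p6), and Col5a2 lies beside it at 45374331-45503282, with 24624 bases and 0 annotated genes between them.

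Type V and type XI chains are the minor components that nucleate fibrils. Col5a2 lay between 8.22 and 8.88 with SKO (median 8.53), against 9.81 to 10.07 without SKO (median 9.96). Its difference was -1.26 ± 0.11 at day 8 and -1.50 ± 0.11 at day 4. Among the 10 genes, only Col14a1 was called for a change of the SKO difference between days. Col5a1 lay between 7.80 and 8.30 with SKO, against 9.07 to 9.32 without SKO, with differences of -1.20 at day 8 and -1.02 at day 4. Col5a3, a chain of restricted distribution, lay between 5.71 and 6.01 with SKO, against 6.82 to 7.06 without SKO, and was lower by the same test (-1.07 at day 8, -1.01 at day 4). Col11a1, best known from cartilage fibrils, lay between 7.30 and 8.05 with SKO, against 8.48 to 8.66 without SKO, and differed by -0.97 ± 0.09 at day 8 and -0.78 ± 0.09 at day 4. None of these 4 genes overlapped between the arms, and their limma adjusted p lay between 4.2e-05 and 7.53e-05 at day 8 and between 2.88e-05 and 0.000443 at day 4.

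Col6a1 encodes a chain of type VI collagen, which forms beaded filaments around cells. It had the smallest difference at day 8 among the 10 genes, with 9.34 to 9.87 with SKO against 10.13 to 10.37 without SKO, a gap of 0.26 (-0.76 ± 0.09 at day 8 and -0.56 ± 0.09 at day 4; limma adjusted p = 0.000388 and 0.00313). Col12a1 encodes type XII collagen, which sits on the surface of type I fibrils. It was at 8.79, 9.10 and 9.08 at day 8 with SKO and cluster C, cluster B and blank virus, against 10.65, 10.45 and 10.24 without SKO. At day 4 it was at 8.71, 8.88 and 9.17 with SKO, against 10.60, 10.32 and 10.41 without SKO. The gap between its arms, 1.07, was the widest of the 10 genes. Its difference was -1.46 ± 0.11 at day 8 and -1.52 ± 0.11 at day 4 (adjusted p = 1.66e-05 and 2.48e-05).

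**Figure D1:**
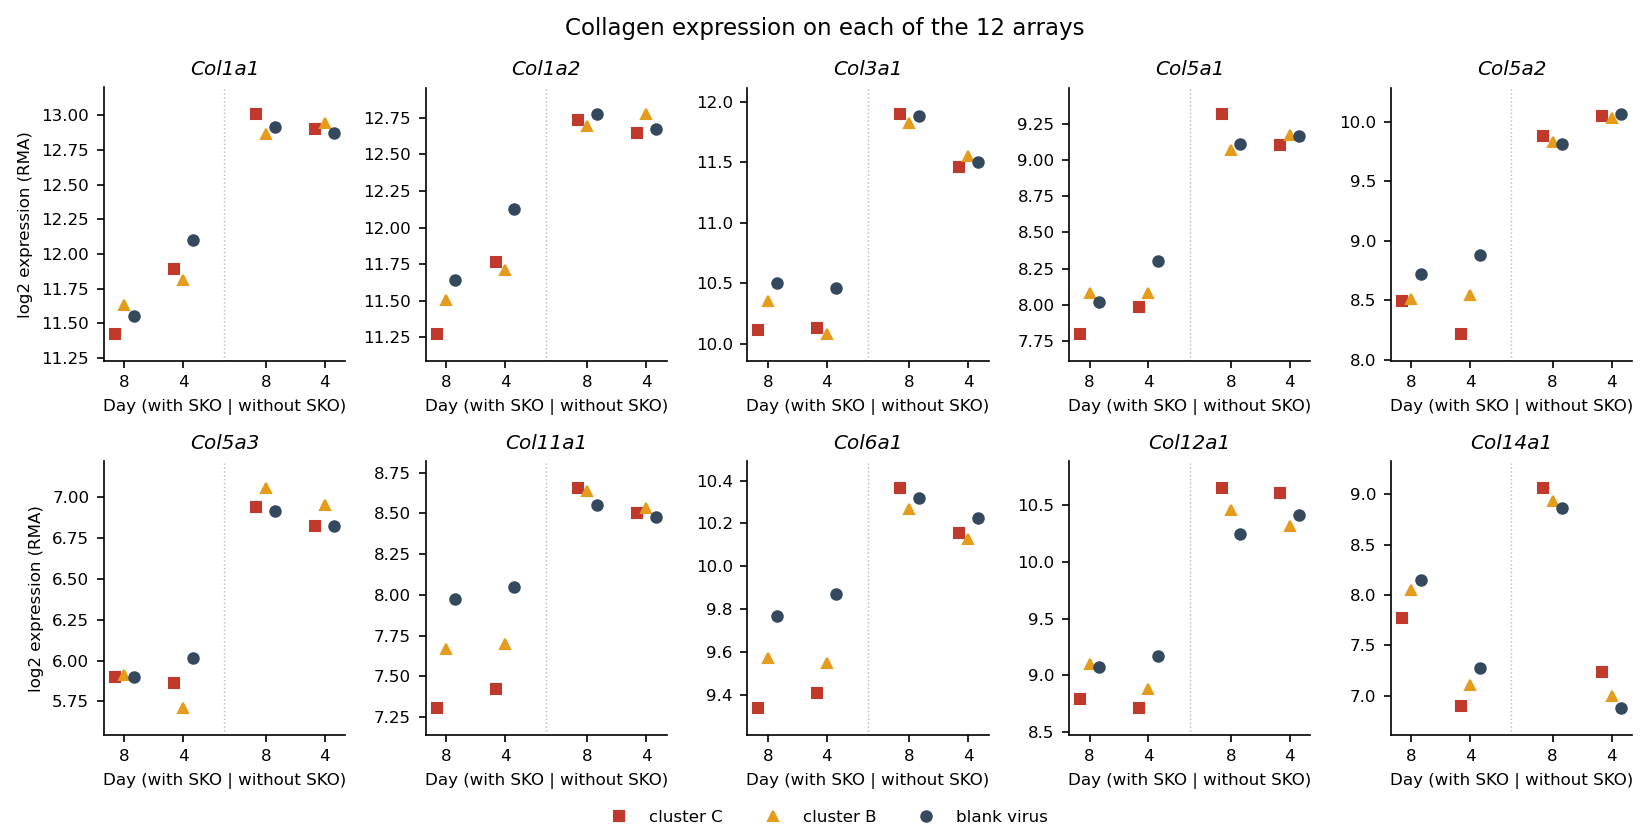
Deposited log2 expression of the 10 collagen genes on the 12 arrays; in each panel arrays with SKO stand left of the dotted line and arrays without SKO right of it, day 8 before day 4, with 1 point per array and the symbol giving the virus. For 9 genes the arms do not overlap, and for Col14a1 they do, with values of 6.90 to 8.15 with SKO and 6.88 to 9.06 without.

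**Figure D2:**
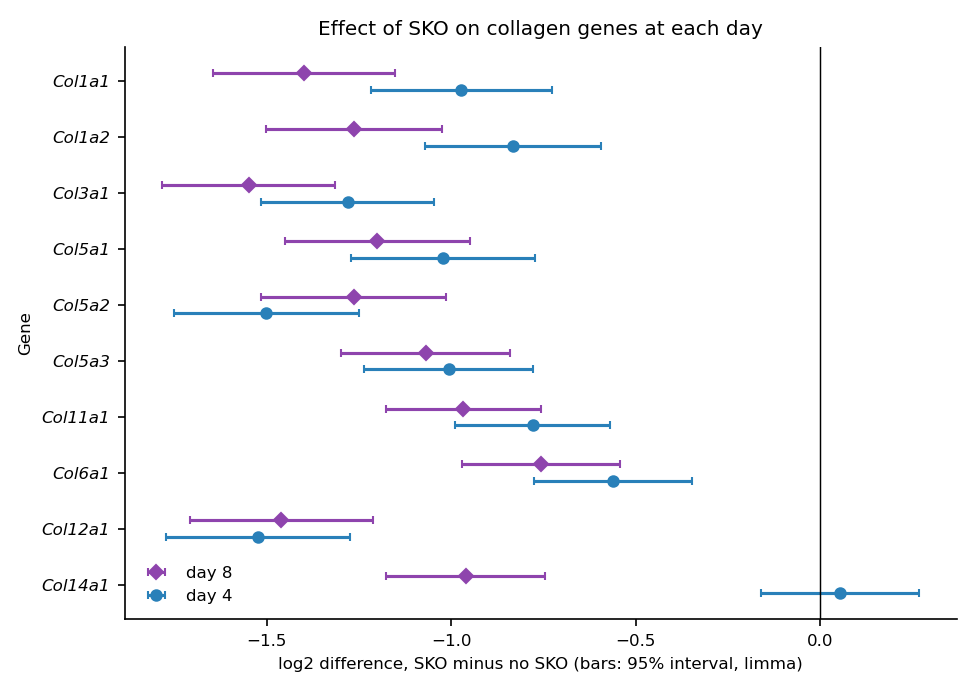
Difference of log2 expression between arrays with SKO and arrays without SKO for each collagen gene at day 8 (diamonds) and day 4 (circles), averaged over the viruses, with 95% intervals of the limma fit. The interval of Col14a1 at day 4 runs from -0.16 to 0.27 and holds 0, and the other 19 intervals lie below 0.

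Of the alternatives tried, only a minimum change took calls away. Leaving out each of the 12 arrays in turn kept 10 genes called at day 8 and 9 at day 4. Asking for a change of more than 1.5-fold kept 9 at day 8 and 4 at day 4 (Col3a1, Col5a2, Col5a3 and Col12a1).

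Promoter windows of 250 bases were available for 6 of the 10 genes in RefSeq (GRCm38.p6), each ending before the start that the promoter table uses. For Col1a2, Col3a1 and Col6a1 this is the outer end of the annotated gene. The windows of Col11a1, Col5a3 and Col5a1 reach 61, 50 and 44 bases into the gene as annotated, and their sequences are not shown. The window of Col1a2 is shown because it holds a CCAAT box and GC boxes, motifs long studied in collagen promoters, that of Col6a1 for its AP-1 motif and that of Col3a1 because it holds none of these. Capitals mark matches to 4 motifs searched on both strands: the CCAAT box, spelled CCAAT, the GC box, spelled GGGCGG, the TATA box, spelled TATAAA, and the AP-1 motif, spelled TGANTCA. No match overlapped another.
Col1a2, chr6:4505368-4505617, plus strand: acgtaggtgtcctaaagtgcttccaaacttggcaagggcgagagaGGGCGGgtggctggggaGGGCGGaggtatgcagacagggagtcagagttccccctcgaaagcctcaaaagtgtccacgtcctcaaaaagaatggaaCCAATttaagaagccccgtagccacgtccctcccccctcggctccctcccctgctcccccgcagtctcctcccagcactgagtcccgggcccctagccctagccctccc
Col6a1, chr10:76726045-76726294, minus strand: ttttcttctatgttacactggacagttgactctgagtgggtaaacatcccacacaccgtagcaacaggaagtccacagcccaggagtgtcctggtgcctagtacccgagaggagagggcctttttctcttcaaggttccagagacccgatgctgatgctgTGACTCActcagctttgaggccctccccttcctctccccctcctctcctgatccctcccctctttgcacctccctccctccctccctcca
Col3a1, chr1:45311288-45311537, plus strand: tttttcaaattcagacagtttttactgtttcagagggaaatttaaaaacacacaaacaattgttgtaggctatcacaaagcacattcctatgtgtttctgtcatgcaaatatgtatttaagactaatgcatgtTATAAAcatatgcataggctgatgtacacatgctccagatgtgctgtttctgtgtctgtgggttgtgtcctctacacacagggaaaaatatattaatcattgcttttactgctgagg
The CCAAT box was found in 3 of the 6 windows (Col1a2, Col5a3 and Col11a1) and in 33.8% of 32851 promoter windows of the same length. GC boxes were found in 4 of the 6, those 3 and Col5a1, against 32.7% of all windows, and 1 of the GC boxes of Col5a3 and 1 of Col11a1 lay inside the annotated gene. The Col3a1 window had TATAAA, as 12.4% of all windows do, from base -117 to -112 before the start, and 35.2% G and C bases, against 62% in the window of Col1a2 and 56% in that of Col6a1. The AP-1 motif of Col6a1 was the only one in the 6 windows, and 6.75% of all windows hold that motif. All 3 genes whose windows are shown were lower with SKO at day 8, by 1.26 for Col1a2, 0.76 for Col6a1 and 1.55 for Col3a1. A match of letters is a description and does not show a bound site.

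Between day 8 and day 4, Col14a1 was the only one of the 10 called in either arm. Col14a1 encodes type XIV collagen, which associates with fibrils in skin and tendon. With SKO it was at 7.77, 8.05 and 8.15 at day 8 with cluster C, cluster B and blank virus, against 6.90, 7.11 and 7.28 at day 4. Without SKO it was at 9.06, 8.94 and 8.86 at day 8, against 7.24, 7.003 and 6.88 at day 4. Every array at day 8 lay above every array at day 4 of its arm, and the arms overlapped at day 4. The rise was 0.90 ± 0.09 with SKO (limma adjusted p = 0.00077) and 1.91 ± 0.09 without SKO (adjusted p = 1.67e-05), and 5.24% and 4.05% of all genes were called higher in these comparisons. The rises themselves differed by -1.01 ± 0.13 (with SKO minus without; limma adjusted p = 0.00629), a call in that direction made for 1% of all genes. With a minimum change of 1.5-fold, neither this difference nor the rise with SKO passed (adjusted p = 0.624 and 0.395). Col14a1 differed between arms by -0.96 ± 0.09 at day 8 (limma adjusted p = 9.02e-05) and by 0.05 ± 0.09 at day 4 (adjusted p = 0.762, 95% interval -0.16 to 0.27).

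Col1a1 and Col1a2 came closest to a change with time in the arm with SKO. Col1a1 was at 11.42, 11.63 and 11.55 at day 8 and at 11.89, 11.81 and 12.10 at day 4 in cultures with SKO, lower at day 8 with each virus, and its difference was -0.40 ± 0.11 (limma adjusted p = 0.0536). Col1a2 differed by -0.39 ± 0.11 (adjusted p = 0.0517). Both passed with quantile normalization, with equal array medians, with dim genes left out and with a trended, robust variance. Without SKO they differed by 0.02 and 0.04 between day 8 and day 4. The difference between arms in this change, -0.43 for each gene, had adjusted p of 0.194 and 0.178, and passed only with the trended, robust variance. Col3a1 differed by 0.10 with SKO and by 0.37 ± 0.10 without SKO (adjusted p = 0.0621), and the second passed with dim genes left out and with the trended, robust variance. The remaining 6 genes differed by -0.16 to 0.07 with SKO and by -0.21 to 0.15 without SKO, and none passed.

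Each microRNA cluster was compared with blank virus within an arm. With SKO, all 10 collagen genes were lower with cluster C than with blank virus on both days, but none passed the test over all genes. Being lower on both days held for 28.9% of all genes. Median differences between single arrays were -0.33 at day 8 and -0.37 at day 4, against -0.02 and -0.00 over all genes. In the fit the 10 estimates ran from -0.65 to -0.08 with a median of -0.37. At an unadjusted p under 0.05 there were 7 of the 10, and 1359 of all 19938 genes. In this comparison 0.0201% of all genes were called.

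Col11a1 stood lowest. It was at 7.30 at day 8 and 7.42 at day 4 with SKO and cluster C, at 7.67 and 7.70 with SKO and cluster B, and at 7.98 and 8.05 with SKO and blank virus. On both days the order was cluster C, cluster B, blank virus from low to high, as it also was for Col6a1, Col5a2 and Col14a1. The share of all genes with that order on both days was not counted. The cluster C difference of Col11a1 was -0.65 ± 0.11 (limma adjusted p = 0.34, 95% interval -0.91 to -0.39). Col6a1 had the same order, with 9.34 and 9.41, 9.57 and 9.55, and 9.77 and 9.87 for cluster C, cluster B and blank virus at day 8 and day 4, and a difference of -0.45 ± 0.12 (adjusted p = 0.641). With a trended, robust variance these passed, with adjusted p of 0.0126 for Col11a1 and 0.039 for Col6a1, and no other collagen of the 10 did. Col5a2 (-0.45 ± 0.14), Col14a1 (-0.38 ± 0.12), Col12a1 (-0.37 ± 0.13), Col1a2 (-0.37 ± 0.13) and Col3a1 (-0.36 ± 0.13) followed with adjusted p of 0.663 to 0.687. Col5a1 (-0.27 ± 0.14), Col1a1 (-0.17 ± 0.13) and Col5a3 (-0.08 ± 0.12) had intervals that included 0, the last from -0.36 to 0.20. The Col5a2 estimate was -0.26 without the cluster C array of day 4, and that of Col1a1 -0.0577 without the blank virus array of day 4 and -0.28 without that of day 8.

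No collagen was called for cluster B. With SKO, 6 of the 10 genes were lower with cluster B on both days, against 25.2% of all genes. The median difference was -0.12 at day 8 and -0.31 at day 4. At day 4 all 10 lay below blank virus, as did 50.6% of all genes. Estimates over both days ran from -0.33 (Col11a1) to -0.08 (Col5a1), and none passed (limma adjusted p = 1 for each; 0.01% of all genes were called), with 1 of the 10 and 614 of all genes at an unadjusted p under 0.05. Set against cluster B directly, cluster C had a median difference of -0.18, lowest for Col11a1 (-0.32 ± 0.11) and highest for Col5a3 (0.07 ± 0.12), and none passed (adjusted p = 0.867 to 0.958; 0.0201% of all genes were called). Without the cluster B array of day 8 that median was -0.0978. Both clusters were compared with the same blank virus arrays, so their differences are not independent of each other.

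Without SKO the cluster differences lay around 0. Estimates for cluster C ran from -0.03 to 0.30 with a median of 0.04, and those for cluster B from -0.07 to 0.13 with a median of 0.01. Only 1 of the 10 genes was lower on both days with cluster C, and 1 with cluster B, against 25% and 22.5% of all genes. Col12a1 was highest with cluster C, at 10.65 at day 8 and 10.60 at day 4, against 10.24 and 10.41 with blank virus (0.30 ± 0.13, limma adjusted p = 1). At an unadjusted p under 0.05 there was 1 of the 10 for cluster C, Col14a1 (0.28 ± 0.12), among 941 of all genes, and 0 for cluster B, among 1169 of all genes. Whether the cluster C effect differed between the arms was tested directly. The difference was below 0 for all 10 genes, and for 10134 of all 19938 genes. Its median was -0.39 over the 10 genes and -0.0046 over all genes. The lowest value was -0.71 ± 0.16 (Col11a1), and limma adjusted p was 0.759 to 0.963, so no difference between arms was called. At an unadjusted p under 0.05 there were 5 of the 10 genes, and 1155 of all genes tested. For cluster B the same difference had a median of -0.25, with 1 of the 10 genes and 1036 of all genes at that p and 0 called. In that test, and in each cluster comparison without SKO, 0% of all genes were called.

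**Figure D3:**
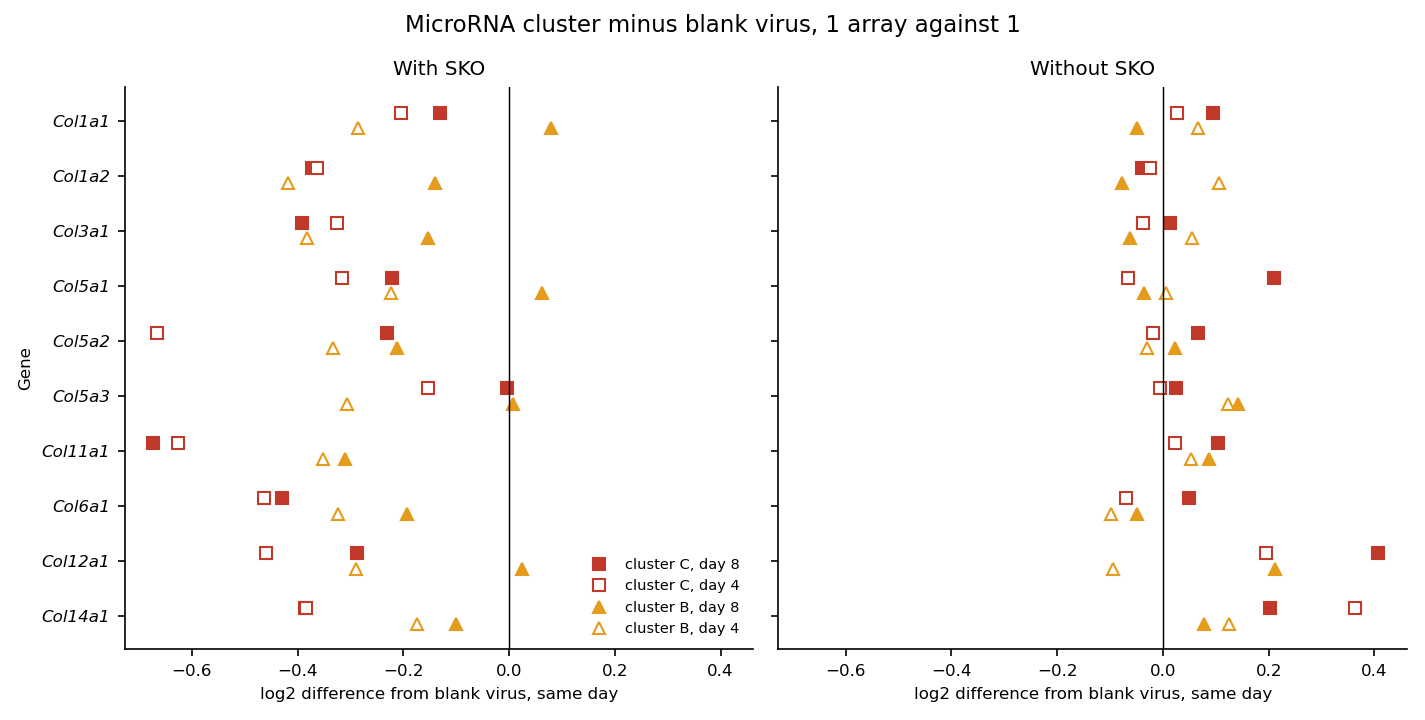
Difference of log2 expression between each microRNA cluster and blank virus of the same day, 1 array against 1, for the 10 collagen genes with SKO (left) and without SKO (right); squares are cluster C, triangles cluster B, filled symbols day 8 and open symbols day 4. With SKO the cluster C values run from -0.67 to -0.00 and without SKO from -0.07 to 0.41.

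Some markers of other cell types also differed between the arms. Mean log2 levels of 7 epithelial markers were 6.42 to 7.40 at day 8 and 5.15 to 5.40 at day 4 with SKO, against 4.72 to 4.99 and 4.69 to 4.90 without SKO, and 7 of 7 were called higher with SKO at day 8 and 4 of 7 at day 4, among them Cdh1 (2.24 at day 8, 1.23 at day 4). Those of 7 pluripotency markers were 4.998 to 6.90 at day 8 with SKO, with the highest value on the array with cluster C, against 4.17 to 4.27 without SKO, and 4 of 7 were called higher. At day 4 no pluripotency marker of the 7 was called (mean levels of 3.87 to 4.28 with SKO against 4.08 to 4.43 without SKO). Of 9 fibroblast markers 5 were called lower with SKO at day 8 and 3 at day 4, with mean levels of 8.04 to 8.28 with SKO and 8.53 to 8.72 without SKO over both days. These markers did not move as 1 group. At day 8 their median difference was -0.39, with 2 above 0 and Pdgfra lowest (-1.51). At day 4 the median was -0.075, with 3 above 0 and Pdgfra again lowest (-2.19). Of 5 smooth muscle markers 5 were lower on both days, with mean levels of 6.66 to 7.18 with SKO against 8.24 to 8.53 without SKO. Of 6 measured cartilage and bone markers 5 were lower at day 8, with mean levels of 4.62 to 4.75 with SKO against 5.97 to 6.05 without SKO. Of 6 leukocyte markers 5 were lower and 1 higher at day 8 (Laptm5, named after its values were seen), with mean levels of 5.16 to 5.22 with SKO against 5.52 to 5.76 without SKO, and Ptprc lay at 3.56 to 4.00 with SKO and 3.84 to 4.42 without SKO, near the lower quartile. Of 5 endothelial markers 1 was higher on each day: Tek, named after its values were seen, at 8.16 to 8.78 with SKO against 4.01 to 5.37 without SKO. The mean of the other 4 was 3.61 to 3.86 with SKO and 3.53 to 3.87 without SKO, near the lower quartile. With SKO, cluster C against blank virus had 0 called markers in all of these lists. There the median difference was 0.66 for the epithelial markers (7 of 7 above 0) and 0.88 for pluripotency (5 of 7 above 0). It was -0.13 for fibroblast (8 of 9 below 0) and -0.35 for smooth muscle markers (5 of 5 below 0). Of all 19938 genes, 9507 lay above 0 and 10431 below 0 in this comparison. These estimates average the days. The mean pluripotency level was higher with cluster C than with blank virus only at day 8, on 1 array (6.90 against 4.998). At day 4 it was lower (4.04 against 4.28). The part of these cell types in the collagen differences was not tested.

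In the related lists from here on, genes that fell or rose are those called lower or higher with SKO than without SKO on the same day. These words describe a change with time only where time or a change between the days is named. Of the 4 remaining fibrillar collagen genes, all 4 fell at day 8, among them Col27a1 (-0.81 ± 0.14) and Col11a2 (-0.55 ± 0.12). At day 4, 2 of them fell, and all 4 estimates lay below 0. Among 11 further type VI and fibril-associated collagen genes, 7 fell and 0 rose at day 8, and 4 fell and 0 rose at day 4. Estimates below 0 numbered 9 of the 11 at day 8 and all 11 at day 4, against 11698 and 11120 of all 19938 genes. The partner chains of Col6a1 parted: Col6a2 fell by 1.07 at day 8 (limma adjusted p = 7.21e-05) and by 0.83 at day 4, while Col6a3 differed by 0.24 at day 8 (adjusted p = 0.119) and fell by 0.44 at day 4. Col6a3 was at 9.47, 9.63 and 9.67 at day 8 and 8.87, 9.06 and 9.24 at day 4 with SKO and cluster C, cluster B and blank virus, a rise of 0.54 with time. That change with time differed from the one without SKO by 0.68 ± 0.14 (adjusted p = 0.0418). Col16a1, another fibril-associated collagen, fell by 1.04 at day 8 and 0.90 at day 4.

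Collagens of basement membranes, networks and cell surfaces went both ways. Of 18 such genes, 7 fell and 2 rose with SKO at day 8, and 5 fell and 1 rose at day 4. Col8a2, a network-forming chain of Descemet's membrane, fell by 1.78 ± 0.10 at day 8 (limma adjusted p = 3.62e-06). Col17a1, the transmembrane collagen of epithelial hemidesmosomes, was at 6.81, 6.69 and 6.66 at day 8 with SKO and cluster C, cluster B and blank virus, against 5.09, 5.28 and 5.01 without SKO. It rose by 1.59 ± 0.12 at day 8 (adjusted p = 1.61e-05) and differed by -0.02 at day 4. Col28a1 rose by 0.68 and 0.97 at day 8 and day 4. Col4a1, a chain of type IV collagen in basement membranes, did not pass on either day (-0.00 at day 8, 0.05 at day 4), with levels of 8.05 to 8.24 with SKO and 8.05 to 8.33 without SKO.

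Most enzymes and chaperones of collagen folding were lower with SKO. Of 19 measured genes of modification and folding, 13 fell and 1 rose with SKO at day 8, and 12 fell and 0 rose at day 4. Serpinh1, the collagen chaperone, was at 7.88, 8.07 and 7.88 at day 8 with SKO and cluster C, cluster B and blank virus, against 8.89, 8.66 and 8.64 without SKO (-0.79 ± 0.10, limma adjusted p = 0.000445). The prolyl 4-hydroxylase subunit genes P4ha3 and P4ha2 were lowest of the list at day 8 (-1.12 ± 0.15 and -1.02 ± 0.10). Their paralog P4ha1 differed by 0.02 at day 8 and fell by 0.62 at day 4, and it rose between the days in the arm with SKO (0.94 ± 0.11, adjusted p = 0.00113). Plod1, a lysyl hydroxylase, was at 8.71, 8.60 and 8.67 at day 8 and 7.63, 7.59 and 7.69 at day 4 with SKO, against 8.27, 8.11 and 8.15 and 8.17, 7.84 and 8.17 without SKO. It was higher with SKO at day 8 (0.48 ± 0.10, adjusted p = 0.0072) and lower at day 4 (-0.42 ± 0.10, adjusted p = 0.0174), and its changes with time differed between arms by 0.91 ± 0.14 (adjusted p = 0.0132).

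Genes that trim procollagens went both ways. Of 7 measured, 3 fell and 1 rose with SKO at day 8, and 2 fell and 3 rose at day 4. Pcolce2, an enhancer of the protease that removes the C-terminal propeptide, was at 7.80, 8.32 and 8.51 at day 8 and 8.48, 8.61 and 8.37 at day 4 with SKO and cluster C, cluster B and blank virus. Without SKO it was at 6.25, 6.18 and 6.17 at day 8 and 5.73, 5.91 and 5.64 at day 4, below each array with SKO. The difference was 2.01 ± 0.15 at day 8 and 2.73 ± 0.15 at day 4 (limma adjusted p = 1.61e-05 and 5.76e-06). Bmp1, which encodes that protease, fell by 0.45 and 0.58 at day 8 and day 4, and Adamts14, which encodes an N-propeptidase, fell by 0.79 at day 8. Adamts3, also an N-propeptidase gene, fell at day 8 (-0.76 ± 0.11) and rose at day 4 (0.45 ± 0.11), and Tll1, a relative of Bmp1, rose at day 4 (1.19 ± 0.10).

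Among 8 genes of collagen receptors and uptake, 4 fell and 0 rose on each day. Itga11, the α11 chain of a fibroblast integrin that binds fibrillar collagen, was at 6.07, 6.53 and 6.45 at day 8 with SKO and cluster C, cluster B and blank virus, against 8.77, 8.59 and 8.53 without SKO. It fell by 2.28 ± 0.12 at day 8 and by 2.02 ± 0.12 at day 4 (limma adjusted p = 2.07e-06 and 8.43e-06), more than any of the 10 collagens. Mrc2, an uptake receptor for collagen fragments, fell by 0.59 at day 8 and 0.86 at day 4. In the arm with SKO, no gene of these related lists passed when cluster C was set against blank virus. Fkbp10 and Adamts2, and the bone markers Runx2 and Bglap, were not analysed here.

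**Figure D4:**
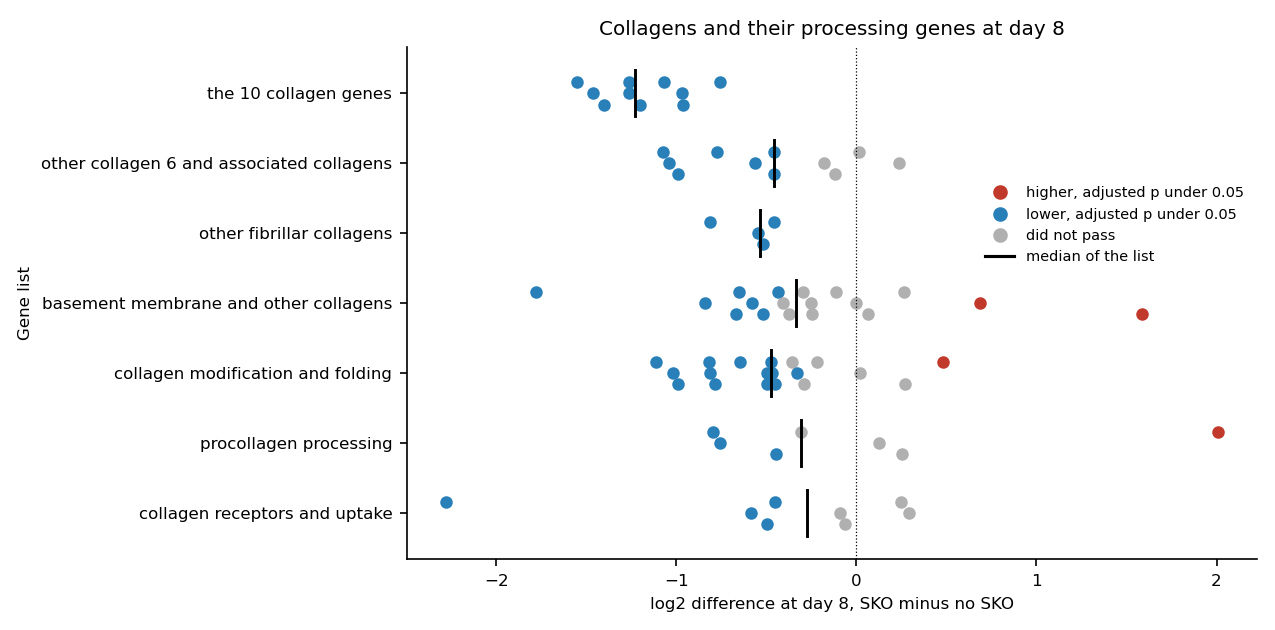
Difference of log2 expression at day 8 between arrays with SKO and without SKO, 1 point per gene, for the 10 collagen genes and the related lists; colour gives the limma call and the black bar is the median of a list. The 10 collagen genes have a median of -1.23, against -0.27 to -0.53 for the other lists.

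The genes most like the collagens over the 12 arrays were sought among 9959 genes with above-median levels, by Pearson correlation with the mean of the 10 centred profiles. They were Dse (r = 0.99), which encodes an epimerase of dermatan sulfate, the fibroblast growth factor gene Fgf7 (r = 0.99), Olfml2b (r = 0.99), Fam114a1 (r = 0.99) and the endoplasmic reticulum dehydrogenase gene H6pd (r = 0.99). The arms lie apart, so these values largely restate the gap between them. Within the 6 arrays with SKO r was 0.89, 0.85, 0.93, 0.97 and 0.78 in that order of genes, and within the 6 without SKO 0.95, 0.91, 0.94, 0.58 and 0.74, as a description.

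MicroRNAs of the Mir29 family are known to target collagen messages, and their probe sets were examined after the data were seen. Mir29a lay between 2.04 and 2.98 and Mir29b-1 between 1.32 and 2.09, below the lower quartile of each of the 12 arrays. Such values give no order between arrays.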

How the data were processed

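The deposited values are log2 expression levels made by the authors for 28853 probe sets on 12 arrays, the scale being read from the values. The submitters' processing notes name RMA and Partek but give no version or role, and the genome build is not given in the sources used here. RNA was labelled from 100 ng, per the labels' protocols. RMA equalises the arrays' distributions, which hides any shift common to most genes. The 2 most alike arrays differed by 0.167 on average, so none was a copy. One description, naming another culture, is shared by all samples, and groups were taken from titles.

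Of the probe sets, 21789 had 1 gene in the platform annotation, and the brightest per gene was kept (19938 genes). limma 3.58.1 in R 4.3.3 fitted 8 coefficients (SKO, day, virus, SKO by day, SKO by virus), with 4 residual and 4.94 prior degrees of freedom, and 13 comparisons were tested. The fit was tested on simulated data. The number of arrays limits precision. Alternatives were each arm alone, a trended and robust variance, quantile normalization, equal medians, dim genes left out, the mean over probe sets, a test against 1.5-fold as the smallest change and the removal of single arrays. Named genes were the 10 collagens, up to 2 highest and 2 lowest called genes per related list and comparison, Serpinh1, P4ha1, Col6a2, Col6a3 and Col4a1, defining cell markers and the 5 genes of most similar profile. Members, lists and tests were chosen with earlier results of these data known.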

Additional observations from a re-analysis of the deposited data

Results flagged for a closer look

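One result differed between the arms by its own test. The change of Col14a1 between day 8 and day 4 was -1.01 ± 0.13 on the log2 scale with SKO minus without SKO (limma adjusted p = 0.00629), with rises of 0.90 with SKO and 1.91 without. Single pairs of arrays of the same virus gave 0.87 to 0.95 with SKO and 1.82 to 1.98 without SKO, so the ranges did not overlap. With a minimum change of 1.5-fold the difference did not pass (adjusted p = 0.624).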

How the results depend on the processing

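With 1 array per condition, a virus effect seen on 1 day counts as error, and the arms cannot be compared when each is fitted alone. No paired analysis was possible because the labels give no replicate numbers to use as a block, while virus and day, which match arrays across conditions, were terms of the fit. Leaving out each array in turn kept the number of collagens called at 10 of 10 for SKO at day 8, 9 at day 4, 1 for each change with time and for the difference between those changes, and 0 for the clusters. With a minimum change of 1.5-fold, 4 were called for SKO at day 4, 0 for day 8 against day 4 with SKO and 0 for the difference between the arms in that change, the calls lost in both being Col14a1. For day 8 against day 4 with SKO, 3 were called with each of a trended and robust variance, quantile normalization, equal medians and dim genes left out. Without SKO, 2 were called with the trended variance and with dim genes left out. The trended variance also called 3 for the difference between arms and 2 for cluster C with SKO. The causes were not tested.

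Signs turned only for differences near 0. For day 8 against day 4 with SKO, Col5a2 was -0.0066 with equal medians and ran from -0.0958 to 0.12 without single arrays, Col5a3 ran from -0.0371 to 0.12 and Col12a1 from -0.0068 to 0.15. Without SKO, quantile normalization gave -0.0408 for Col1a1 and -0.0349 for Col12a1, and equal medians gave -0.023 for Col1a1, -0.0108 for Col1a2, -0.029 for Col5a1 and -0.0417 for Col12a1. Leaving out single arrays there gave -0.0176 to 0.0753 for Col1a1, -0.0802 to 0.0787 for Col5a1 and -0.0604 to 0.0926 for Col12a1. For the difference between arms it gave -0.14 to 0.0151 for Col5a3 and -0.0235 to 0.14 for Col12a1. With SKO it gave -0.19 to 0.0374 for Col5a3 under cluster C, and -0.27 to 0.0613 for Col1a1 and -0.20 to 0.0383 for Col5a1 under cluster B.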
